A study of Homo sapiens with 6 samples.

Results

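The 10 genes followed here cover the NRF2 antioxidant pathway and the ferritin subunits. They are NFE2L2, which encodes the transcription factor NRF2, its repressor KEAP1, the antioxidant genes HMOX1, NQO1, GCLC, GCLM, SLC7A11 and TXNRD1, and the ferritin genes FTH1 and FTL. They were taken by symbol from a table of raw counts for 58395 genes, and all 10 were among the 23806 genes with enough counts to be tested. RNA sequencing was performed on MDA-MB-231 cells, a human triple-negative breast adenocarcinoma line, to ask which transcripts depend on cysteine-rich protein 2 (CRP2), the LIM domain protein encoded by CSRP2. The siCRP2 group comprised 3 libraries from cells transfected with siCRP2#a, a single siRNA against CSRP2, and the siCTR group comprised 3 libraries from cells that received a non-targeting siRNA. Both groups were kept in complete medium in a standard incubator and harvested 65 h after transfection by the labels, where the methods of the study give a slightly later time, with no other agent. Each siCRP2 library shared a code in its column name, 0412, 0611 or 1311, with a siCTR library, and values are given in that order throughout. Because 1 siRNA was used, loss of CRP2 and other effects of this siRNA cannot be told apart.

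NRF2 is held at a low level in unstressed cells by KEAP1, which presents it to a CUL3 ubiquitin ligase for destruction. When KEAP1 is inactivated by oxidants or electrophiles, NRF2 accumulates, pairs with a small MAF protein and binds antioxidant response elements near genes of glutathione synthesis, thioredoxin reduction, quinone detoxification, heme breakdown and iron storage. Ferritin, a shell of heavy (FTH1) and light (FTL) subunits that stores iron, is also controlled at translation by iron regulatory proteins, a step that messenger RNA counts do not record.

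Library totals ran from 17336798 to 39115778 counts, so that 3 counts corresponded to 0.0768 to 0.175 CPM, the counts scaled to a common library size. CSRP2 itself had 2.17, 1.78 and 1.89 CPM in siCRP2 libraries, against 13.7, 11.7 and 11.4 CPM in siCTR libraries. The targeted gene was thus low in every siCRP2 library, with a log2 fold change of -2.66 (SE 0.178, adjusted p = 2.42e-08). Adjusted p-values throughout are from edgeR's quasi-likelihood test with Benjamini-Hochberg adjustment over all genes tested. VIM and CD44, which mark this mesenchymal line, and the keratin genes KRT8 and KRT18 were each at or above 599 CPM in all 6 libraries. The receptor genes ESR1 and PGR, which this line lacks, had 4 and 0 counts in all. Leukocyte and liver markers were near 0 (PTPRC 52 counts, CD3E 1, CD79A 15 and ALB 3 in all libraries). Of the endothelial markers, VWF and CDH5 had 52 and 8 counts, whereas PECAM1 was at 4.60 to 6.95 CPM in siCRP2 libraries and 9.64 to 21.5 CPM in siCTR libraries. The epithelial gene CDH1 was at 26.8 to 37.5 CPM in siCRP2 libraries, against 14.3 to 21.0 CPM in siCTR libraries, whereas EPCAM, another epithelial gene, was at 22.2 to 25.6 CPM in siCRP2 libraries and 24.7 to 36.6 CPM in siCTR libraries. The part of PECAM1-expressing or CDH1-expressing cells in the results below was not tested, and in bulk RNA a change in RNA per cell and a change in the share of cells that express a gene cannot be told apart.

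The 10 genes spanned a wide range of abundance. Per kilobase of merged exons and scaled to a common total (TPM), FTL was the most abundant, with 8645 ± 1948 TPM in siCRP2 cells and 9018 ± 1852 TPM in siCTR cells (SD, n = 3 each). FTH1 followed with 3309 ± 718 TPM in siCRP2 cells and 3365 ± 917 TPM in siCTR cells. Both ferritin transcripts exceeded every other member in all 6 libraries. TXNRD1 came next with 691 ± 116 TPM in siCRP2 cells and 765 ± 119 TPM in siCTR cells, and then NQO1 with 192 ± 23.9 TPM in siCRP2 cells and 295 ± 33.9 TPM in siCTR cells. KEAP1, GCLM, HMOX1, NFE2L2 and SLC7A11 lay between 42.0 and 126 TPM in siCRP2 cells and between 26.9 and 99.7 TPM in siCTR cells. GCLC was the least abundant per kilobase of merged exons, with 21.3 ± 1.05 TPM in siCRP2 cells and 21.5 ± 3.15 TPM in siCTR cells. In siCTR cells no gene's range over the libraries overlapped that of its neighbour in the order. In siCRP2 cells GCLM (75.1 to 91.7 TPM) overlapped HMOX1 (65.3 to 75.7 TPM), and NFE2L2 (44.1 to 45.1 TPM) overlapped SLC7A11 (33.7 to 49.5 TPM), so these neighbours did not differ beyond their spread. Below NQO1 the order depended on the length used. The merged exons of NFE2L2 cover 14975 bases and its canonical transcript 2446, and with canonical lengths it moved to rank 5 in place of rank 8, KEAP1 moved to rank 6, GCLM to rank 8 and GCLC to rank 9, and SLC7A11 came last.

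Promoters were read for the core of the antioxidant response element, the letters TGACNNNGC on either strand, in the 300 bases that run from 250 before to 50 after each RefSeq transcription start (GRCh38.p14). Of the 10 genes, 7 matched the promoter table by symbol with 10 start sites between them, and HMOX1, SLC7A11 and FTH1 did not. The letters were present at KEAP1, GCLM and TXNRD1, and they occur in 13.3% of the 35116 promoters of that table. The letters TGANTCA, an AP-1 site that can overlap the element, were in none of the members' promoters and in 7.71% of all. The matches are shown 5′ to 3′ on the strand of the gene, with the matching letters in capitals and 20 bases on each side, because KEAP1, the repressor of NRF2, shared these letters with GCLM and TXNRD1.
KEAP1, downstream start, at -54 (chr19:10502797-10502845, minus strand): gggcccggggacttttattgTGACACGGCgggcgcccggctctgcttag
KEAP1, downstream start, at -31 (chr19:10502774-10502822, minus strand): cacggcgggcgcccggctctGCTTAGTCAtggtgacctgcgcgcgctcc
GCLM at -34 (chr1:93909436-93909484, minus strand): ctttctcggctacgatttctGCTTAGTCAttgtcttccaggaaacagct
TXNRD1, upstream start, at -99 (chr12:104215660-104215708, plus strand): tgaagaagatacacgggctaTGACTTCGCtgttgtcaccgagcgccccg
TXNRD1, upstream start, at -8 (chr12:104215751-104215799, plus strand): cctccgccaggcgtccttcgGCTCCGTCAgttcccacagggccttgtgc
TXNRD1, downstream start, at -102 (chr12:104286910-104286958, plus strand): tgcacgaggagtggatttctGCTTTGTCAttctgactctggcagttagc
Positions count from the annotated start to the first letter of the match. The same letters, GCTTAGTCA, stood at -31 in KEAP1 and -34 in GCLM, TXNRD1 carried a match at both of its annotated starts, and KEAP1 at its downstream start but not at its upstream one. A match describes the sequence and not binding, and the lack of one in this window says nothing of elements further away.

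Between siCRP2 and siCTR cells 4 of the 10 genes passed the test, in both directions. The transporter gene SLC7A11, the heme oxygenase gene HMOX1 and KEAP1 rose, NQO1 fell, and NFE2L2, GCLC, GCLM, TXNRD1, FTH1 and FTL did not pass the test. The 3 higher genes stand beside 12.5% of all genes tested that rose by the same threshold, an adjusted p under 0.05, and the 1 lower gene beside 11.5% that fell. Among the 6274 genes at least as abundant as HMOX1, the member with the lowest mean CPM, 29.0% were higher and 17.1% lower, and 3 of 10 is close to the first of these shares. The groups did not overlap for the same 4 genes, 3 higher in siCRP2 libraries, where 19.4% of all genes did the same, and 1 lower, where 18% did. The median log2 fold change was 0.05 over the 10 genes, against -0.02 over all genes tested and 0.10 over the abundant ones. No member passed a fold change of 2 in either direction.

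**Figure D1:**
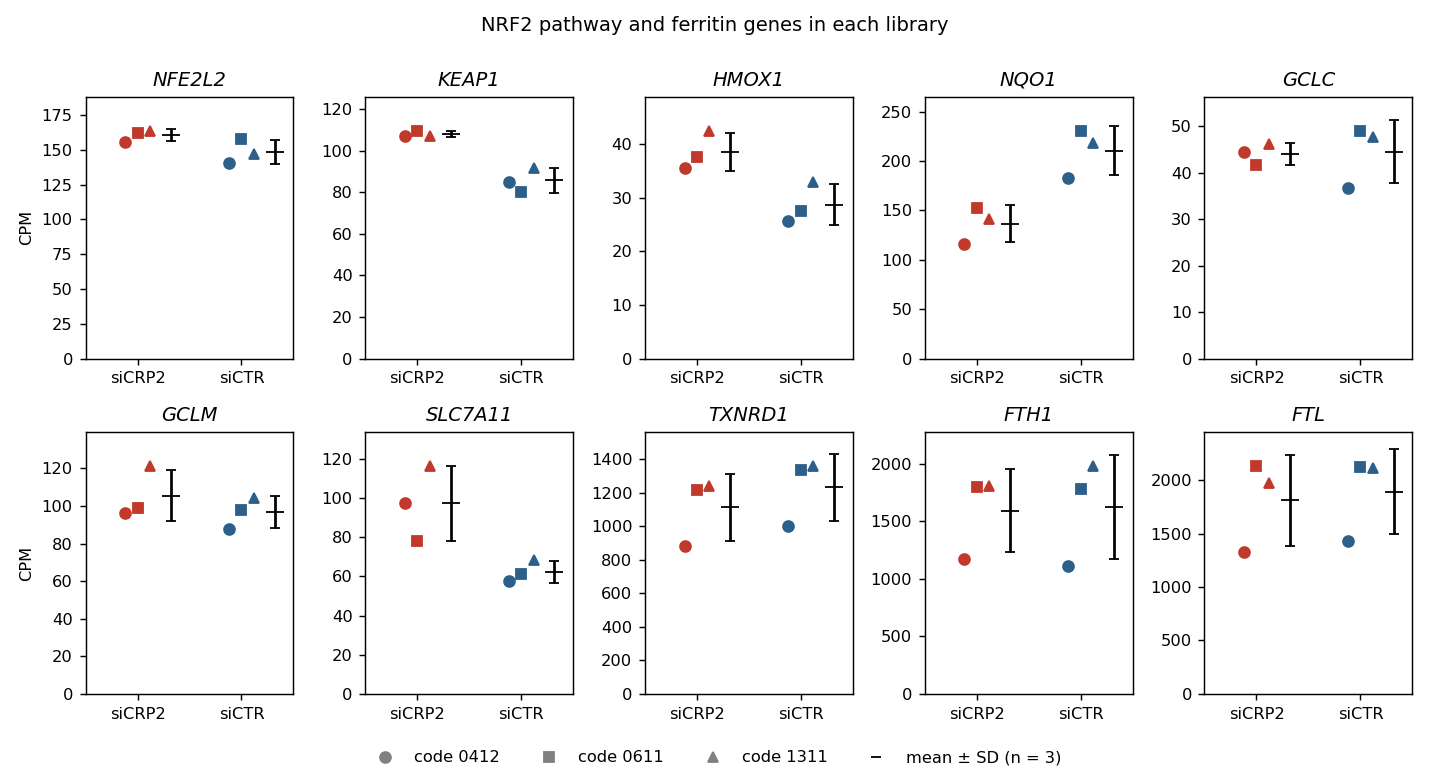
CPM of each of the 10 genes (vertical axes, each from 0) in the 3 siCRP2 libraries (red) and the 3 siCTR libraries (blue), with symbols for the shared codes and bars for the mean ± SD. NQO1 lies lower in every siCRP2 library, KEAP1, HMOX1 and SLC7A11 lie higher, and TXNRD1, FTH1 and FTL are lowest in the library of code 0412 in both groups.

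NFE2L2 (chromosome 2, positions 177218667 to 177392756 on the minus strand, GRCh38) was itself little different between groups. It had 156, 162 and 164 CPM in siCRP2 libraries, against 141, 158 and 147 CPM in siCTR libraries. The groups overlapped, since the siCTR library of code 0611 lay above the siCRP2 library of code 0412, although within all 3 codes NFE2L2 was higher with siCRP2. The log2 fold change was 0.11 (SE 0.0817, adjusted p = 0.356), and its 95% interval ran from a fold of 0.960 to 1.22. Its annotated exons share 3509 bases, 23.4% of their length, with HNRNPA3 on the opposite strand, and HNRNPA3 rose by 0.44 on the log2 scale (adjusted p = 0.00357). The library kit was stranded, but whether the counting used the strand is not given in the sources used here. Reads of NFE2L2 and HNRNPA3 there may therefore be mixed or left out. A long non-coding RNA gene on the same strand as NFE2L2 shares 2037 bases, 13.6% of the NFE2L2 exons, and held 277 counts. Strand cannot separate reads in that stretch, so these too may be mixed or left out.

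KEAP1 (chromosome 19, 10486125 to 10503558, minus strand), whose product presents NRF2 to the CUL3 ligase, rose. It had 107, 110 and 107 CPM in siCRP2 libraries, against 85.1, 80.2 and 91.8 CPM in siCTR libraries. All 3 siCRP2 libraries lay close together and above every siCTR library. The fold change was 1.26 (95% interval 1.11 to 1.43, log2 0.33, SE 0.0845, adjusted p = 0.00766). The call was lost without the siCRP2 library of code 0611 (adjusted p = 0.0713) or 1311 (0.0575), and without the siCTR library of code 0611 (0.0540), with log2 fold changes of 0.29 to 0.31.

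The transcripts of NRF2 and its repressor were also set against each other within each library. NFE2L2 had 1.46, 1.48 and 1.53 counts per KEAP1 count in siCRP2 libraries, against 1.65, 1.97 and 1.60 in siCTR libraries. The ratio was lower in every siCRP2 library than in any siCTR library, with a log2 difference of -0.22. The exact two-sided permutation test gave p = 0.1 (adjusted p = 0.3 over 3 ratios), which is the smallest p that 3 libraries against 3 can give.

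NQO1 (chromosome 16, 69706996 to 69726668, minus strand), a quinone reductase widely used as a readout of NRF2, fell, and without the code in the model no other member did. It had 116, 152 and 141 CPM in siCRP2 libraries, against 183, 231 and 219 CPM in siCTR libraries. Every siCRP2 library lay below every siCTR library, and within codes the log2 ratios of siCRP2 over siCTR were -0.65, -0.60 and -0.63. NQO1 fell to a fold of 0.650 (95% interval 0.551 to 0.765, log2 fold change -0.62, SE 0.111, adjusted p = 0.000767). It kept this call without any single library and with every other model, scaling and filter, but its fold lay short of a limit of 2. In both groups the library of code 0412 was the lowest.

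HMOX1 (chromosome 22, 35380361 to 35394214, plus strand) encodes the inducible heme oxygenase, which splits heme into biliverdin, carbon monoxide and iron, and it rose. It had 35.5, 37.6 and 42.5 CPM in siCRP2 libraries, against 25.6, 27.5 and 33.0 CPM in siCTR libraries. The groups did not overlap, though the lowest siCRP2 library was only slightly above the highest siCTR library, and within codes the log2 ratios were 0.47, 0.45 and 0.36. The fold change was 1.34 (95% interval 1.13 to 1.60, log2 0.43, SE 0.118, adjusted p = 0.0130). Its call was lost without the siCRP2 library of code 0611 (adjusted p = 0.0677) or 1311 (0.127), or without the siCTR library of code 0611 (0.0707). NQO1 and HMOX1, both textbook NRF2 targets, therefore moved in opposite directions in the same libraries.

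The 3 genes of glutathione supply did not move together. SLC7A11 (chromosome 4, 138164097 to 138242349, minus strand), the cystine importer xCT, had 97.5, 78.2 and 116 CPM in siCRP2 libraries, against 57.5, 61.2 and 68.2 CPM in siCTR libraries. It was higher in every siCRP2 library, with the smallest difference within code 0611. SLC7A11 had the highest fold change of the members, 1.56 (95% interval 1.28 to 1.91, log2 0.65, SE 0.131, adjusted p = 0.00356), and kept its call without any single library and with every other model, scaling and filter, but its fold lay short of a limit of 2. Within codes the log2 ratios were 0.76, 0.35 and 0.77.

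GCLC and GCLM encode the catalytic and the modifier subunit of glutamate-cysteine ligase, the rate-limiting enzyme that uses the imported cysteine. GCLC (chromosome 6, 53497341 to 53616970, minus strand) had 44.3, 41.5 and 46.1 CPM in siCRP2 libraries, against 36.7, 49.0 and 47.7 CPM in siCTR libraries. The groups overlapped and the direction differed between codes, with a log2 fold change of -0.01 (SE 0.113, adjusted p = 0.947) and a 95% interval of the fold from 0.839 to 1.17. GCLM (chromosome 1, 93885199 to 93909456, minus strand) had 96.2, 99.1 and 121 CPM in siCRP2 libraries, against 87.7, 98.1 and 105 CPM in siCTR libraries. It was higher in the siCRP2 library of each code, but the groups overlapped and its log2 fold change of 0.13 (SE 0.101, adjusted p = 0.416) did not pass the test, with a fold interval of 0.941 to 1.27. Counts of GCLC per count of GCLM were 0.461, 0.419 and 0.380 in siCRP2 libraries, against 0.419, 0.499 and 0.457 in siCTR libraries. The balance of the subunits overlapped between groups (log2 difference -0.13, exact two-sided permutation p = 0.5, adjusted p = 0.6).

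**Figure D2:**
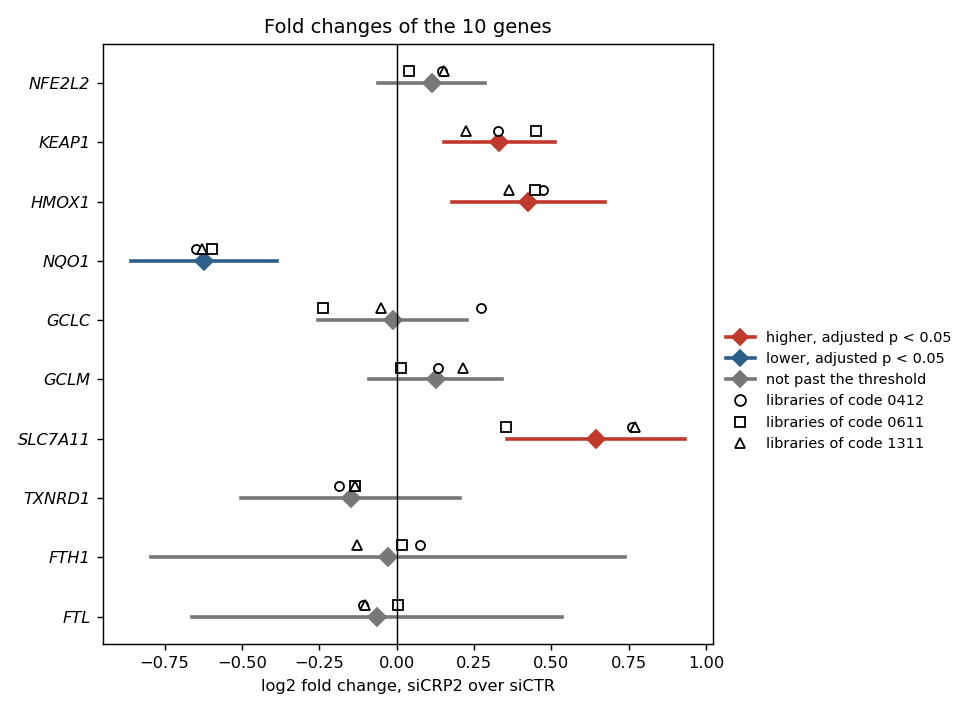
Log2 fold change of siCRP2 over siCTR for each of the 10 genes (horizontal axis), with diamonds for the edgeR estimate, lines for its 95% interval and open symbols for the log2 ratio within each code. The open symbols of NQO1 lie together near -0.62 and those of SLC7A11 between 0.35 and 0.77, while those of GCLC lie on both sides of 0.

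TXNRD1 (chromosome 12, 104215779 to 104350307, plus strand), the cytosolic thioredoxin reductase, was abundant in every library. It had 883, 1220 and 1239 CPM in siCRP2 libraries, against 1004, 1339 and 1360 CPM in siCTR libraries. The groups overlapped because both libraries of code 0412 were low, while within codes the log2 ratios were -0.19, -0.13 and -0.13. Without the code in the model the log2 fold change was -0.15 (SE 0.157, adjusted p = 0.568). With the code as a block TXNRD1 fell, with the same log2 fold change of -0.15 and adjusted p = 0.0484 in edgeR and 0.00343 in limma voom. The block then gave 3 higher and 2 lower members, beside 19.5% of all genes tested that were higher and 17.8% that were lower with the block, and it changed no other member's call. Here and in the lists below, shares with the block are over all genes tested. Those of the abundant genes were not computed with the block, so blocked counts have no background of like abundance.

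The ferritin genes did not differ between groups beyond the spread of the libraries. FTH1 (chromosome 11, 61959718 to 61967634, minus strand), the subunit that oxidises iron on entry, had 1174, 1798 and 1811 CPM in siCRP2 libraries, against 1114, 1778 and 1980 CPM in siCTR libraries. FTL (chromosome 19, 48965309 to 48966879, plus strand), the subunit that favours mineral formation, had 1327, 2130 and 1971 CPM in siCRP2 libraries, against 1431, 2126 and 2114 CPM in siCTR libraries. Both genes were far lower in the libraries of code 0412 than in the others, whichever siRNA was used. The log2 fold change was -0.03 for FTH1 (SE 0.294, adjusted p = 0.961) and -0.06 for FTL (SE 0.240, adjusted p = 0.893). These intervals were wide, with folds of 0.577 to 1.67 for FTH1 and 0.632 to 1.45 for FTL, and the block gave adjusted p = 0.910 for FTH1 and 0.457 for FTL. Counts of FTH1 per count of FTL were 0.884, 0.844 and 0.919 in siCRP2 libraries, against 0.778, 0.837 and 0.937 in siCTR libraries. The balance of heavy to light subunit overlapped between groups (log2 difference 0.06, exact two-sided permutation p = 0.6, adjusted p = 0.6).

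Both ferritin genes have many processed copies in the genome, to which their reads can also map. The 25 annotated FTH1 pseudogenes in the table held 2204 counts in all, 0.768% to 1.35% of the FTH1 counts of a library. The 16 FTL pseudogenes held 1159 counts, 0.364% to 0.570% of those of FTL. Adding them to their parents left the calls of both genes the same. Reads that map equally well to a parent and a copy can be left out of both. The pseudogene counts therefore do not measure how many reads were lost. BEST1 shares 1267 bases with the exons of FTH1 on the opposite strand and held 38 counts, and the antisense genes over NQO1, GCLC and SLC7A11 held 2, 4 and 32 counts. If the counting ignored the strand, reads in shared exons may have been left out of both genes. These low counts then do not show how many reads were lost.

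Some members followed the siRNA group, some followed the code, and others followed neither clearly. Of the variance of log2(CPM + 1) between the 6 libraries, the siRNA group held 89.4% for KEAP1, 80.6% for NQO1, 75.1% for SLC7A11 and 72.4% for HMOX1. For FTH1, FTL and TXNRD1 the code held 98.3%, 97.7% and 88.6%, and the group held 0.0370%, 1.46% and 11.2%. GCLM also followed the code (73.6%), NFE2L2 was divided between group (53.9%) and code (34.9%), and GCLC left 56.6% to neither. The medians over the 6274 abundant genes were 68.3% for the group and 21.7% for the code. What the code stands for is not given in the sources used here, and its part in the levels of the ferritin genes was not tested beyond these values.

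**Figure D3:**
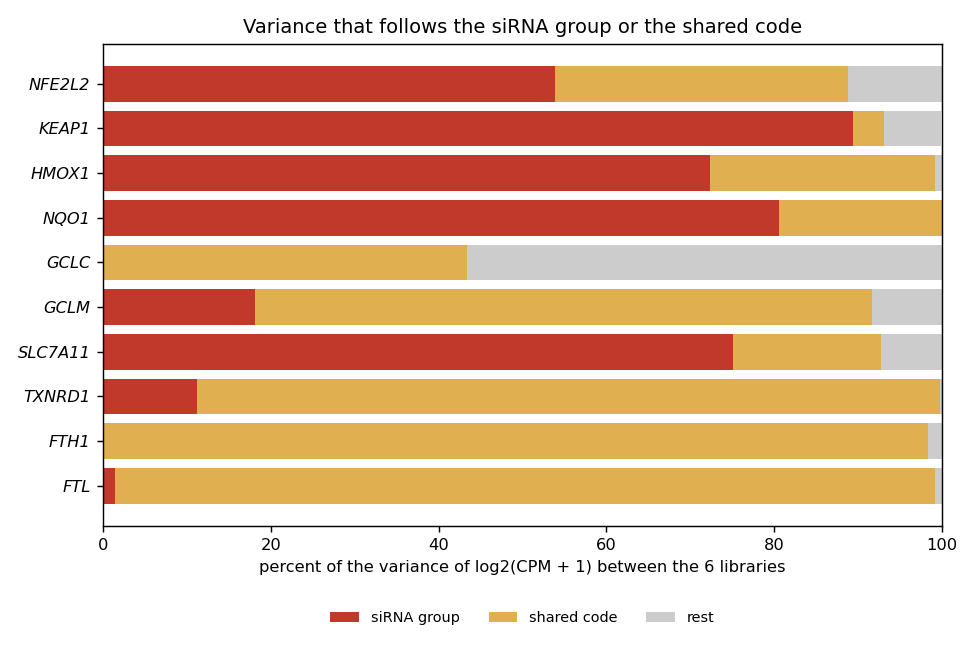
Share of the variance of log2(CPM + 1) between the 6 libraries (horizontal axis, percent) that goes with the siRNA group (red), the shared code (yellow) or neither (grey) for each of the 10 genes. The group holds 72.4% to 89.4% for KEAP1, HMOX1, NQO1 and SLC7A11, and the code holds 88.6% to 98.3% for TXNRD1, FTH1 and FTL.

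Other genes that control NRF2 were examined as a list of 15 regulators and partners, all tested. Of these 3 were higher, 3 lower and 9 neither, with a median log2 fold change of 0.14, beside 12.5% higher and 11.5% lower of all genes tested and 29.0% and 17.1% of the abundant ones. BTRC, the receptor of another ubiquitin ligase that marks NRF2, rose by 0.58 on the log2 scale, to 66.1 ± 1.03 CPM in siCRP2 cells, against 44.1 ± 1.20 CPM in siCTR cells (SD, n = 3 each, adjusted p = 0.000110). DPP3, a peptidase that binds KEAP1, was at 35.0 ± 3.80 CPM in siCRP2 cells, against 72.7 ± 5.44 CPM in siCTR cells (log2 fold change -1.05, adjusted p = 1.56e-06). BACH2, a transcriptional repressor that also pairs with small MAF proteins, was higher (log2 fold change 0.96, adjusted p = 0.00646), and NFE2L3, a relative of NRF2, was lower (-0.46, adjusted p = 0.00348). The core partners did not pass this test. CUL3 had a log2 fold change of 0.14 (adjusted p = 0.248), the repressor BACH1 0.19 (0.131), and the small MAF genes MAFF 0.38 (0.0856), MAFG 0.23 (0.215) and MAFK -0.41 (0.0779). With the code as a block CUL3 still did not pass (adjusted p = 0.0817), but BACH1 (0.0132), MAFF (1.12e-06) and MAFG (0.00138) were higher and MAFK (1.14e-06) was lower, each called in limma voom too. The whole list then had 7 higher and 4 lower genes, beside 19.5% and 17.8% of all genes tested with the block.

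Beyond the 10 members, a list of 34 other NRF2 target genes held 31 that were tested, and those that moved lay on the side of NQO1. Of the 31, 13 fell, 18 were neither and 0 rose, with a median log2 fold change of -0.36. Of all genes tested 11.5% were lower and 12.5% higher, and of the abundant ones 17.1% and 29.0%. The list was written with earlier results of these data known. At an unadjusted p under 0.05, 1 of the 31 was higher in edgeR, and DESeq2 and the edgeR exact test called 0 higher and 14 and 15 lower. With the code as a block 2 were higher (TXN and OSGIN1, named after their values were seen) and 20 lower. With the block 19.5% of all genes tested were higher and 17.8% lower. Without the siCTR library of code 0611 5 were lower, and without that of code 1311 8 were.

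MGST1, a membrane-bound glutathione transferase, had 26.9, 46.8 and 40.1 CPM in siCRP2 libraries, against 113, 159 and 154 CPM in siCTR libraries. It was low in every siCRP2 library, with a log2 fold change of -1.90 (SE 0.250, adjusted p = 0.00402). PIR, an iron-binding nuclear protein gene, fell by 1.13 on the log2 scale (adjusted p = 1.83e-05), and CBR1, a carbonyl reductase gene, fell by 0.60 (adjusted p = 0.000122). The aldo-keto reductase genes AKR1C1, AKR1C2 and AKR1C3, chosen after their values were seen and near-identical in sequence so that reads can be divided between them, varied widely within groups. AKR1C3 had 89.2, 210 and 218 CPM in siCRP2 libraries, against 201, 414 and 579 CPM in siCTR libraries. Within every code it was lower with siCRP2, but its log2 fold change of -1.21 (adjusted p = 0.244) passed the test only with the block, as did those of AKR1C1 (-1.74, adjusted p = 0.335) and AKR1C2 (-1.44, adjusted p = 0.394).

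**Figure D4:**
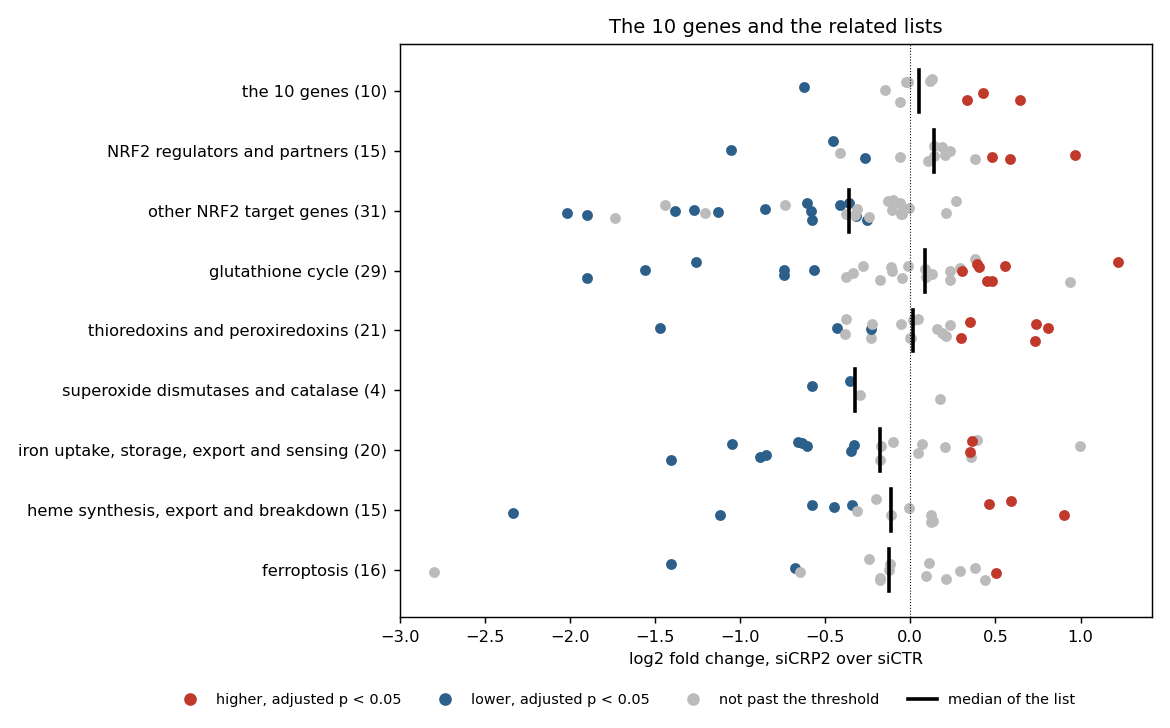
Log2 fold change of siCRP2 over siCTR (horizontal axis) for the 10 genes and for the tested genes of 8 related lists, with the number of genes in brackets and black lines for the median. The other NRF2 target genes have 13 lower and 0 higher genes and a median of -0.36, while the 10 genes have a median of 0.05.

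Genes that use or recycle glutathione moved both ways. Of 29 tested, 7 were higher, 6 lower and 16 neither, with a median log2 fold change of 0.09, and these counts lay near the 29.0% higher and 17.1% lower of the abundant genes. With the block 12 were higher and 10 lower, beside 19.5% and 17.8% of all genes tested with the block. Whether these blocked counts lie near those of the abundant genes was not tested. GGCT, which breaks down gamma-glutamyl peptides, rose by 1.22 (adjusted p = 4.14e-06) and GLRX3, a glutaredoxin, by 0.55 (adjusted p = 9.75e-05), both on the log2 scale. GSTK1, a glutathione transferase of mitochondria and peroxisomes, fell by 1.56 (adjusted p = 1.4e-08) and GPX3, the secreted glutathione peroxidase, by 1.26 (adjusted p = 5.74e-07). Among 21 thioredoxin, peroxiredoxin and related genes 5 were higher, 3 lower and 13 neither, with a median of 0.02. These counts too lay near the 29.0% higher and 17.1% lower of the abundant genes. With the block 7 of the 21 were higher and 6 lower, where the shares of all genes tested were 19.5% and 17.8%. The reductase gene TXNRD3 rose by 0.81 (adjusted p = 0.000518). The sestrin genes SESN1 (0.74, adjusted p = 0.00119) and SESN2 (0.73, adjusted p = 0.000641) rose too, and MSRB1, a methionine sulfoxide reductase gene, fell by 1.47 (adjusted p = 4.68e-06). Of 4 tested superoxide dismutase and catalase genes 3 were lower and 1 higher with the block, beside 17.8% and 19.5% of all genes tested. Without the block 2 were lower and 0 higher in edgeR, beside 11.5% and 12.5% of all genes tested. In edgeR 1 was higher at an unadjusted p under 0.05, and 0 were higher in DESeq2. The lower ones were the extracellular dismutase SOD3 (log2 fold change -0.58, adjusted p = 0.00488) and the copper chaperone CCS (-0.35, adjusted p = 0.0283), and CCS lost its call without the siCRP2 library of code 0412 (adjusted p = 0.0662) or 0611 (0.0847), or without the siCTR library of code 0611 (0.0586) or 1311 (0.0633).

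Genes of iron handling other than ferritin were examined next. Of 20 tested, 9 were lower, 2 higher and 9 neither, with a median log2 fold change of -0.18. Of all genes tested 11.5% were lower and 12.5% higher, and of the abundant ones 17.1% and 29.0%. TFRC, the transferrin receptor through which most cells take up iron, had 186, 221 and 209 CPM in siCRP2 libraries, against 420, 553 and 655 CPM in siCTR libraries. It was low in every siCRP2 library, with a log2 fold change of -1.40 (SE 0.151, adjusted p = 0.000132). The ferric reductase gene CYBRD1 fell by 0.66 (adjusted p = 1.58e-05), STEAP1 by 0.85 (adjusted p = 0.000355), HFE by 0.64 (adjusted p = 0.000445) and the iron exporter gene SLC40A1 by 0.61 (adjusted p = 0.0301), each on the log2 scale. SLC40A1 lost its call without the siCRP2 library of code 0412 (adjusted p = 0.102) or 1311 (0.0897), or without the siCTR library of code 0611 (0.192). Of the iron regulatory proteins that bind ferritin and TFRC messenger RNA, IREB2 rose by 0.35 on the log2 scale (adjusted p = 0.00460), while ACO1 had 0.07 (adjusted p = 0.704). NCOA4, the receptor for ferritin breakdown, had -0.18 (adjusted p = 0.121, and 0.0132 with the block). With the block the iron list had 5 higher and 10 lower genes, beside 19.5% and 17.8% of all genes tested with the block. Without the siCRP2 library of code 1311 the list had 5 lower genes.

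Around HMOX1, the heme list of 15 tested genes had 3 higher, 5 lower and 7 neither, with a median log2 fold change of -0.11. The shares were 12.5% higher and 11.5% lower of all genes tested, and 29.0% and 17.1% of the abundant ones. With the block 3 heme genes were higher and 7 lower, beside 19.5% and 17.8% of all genes tested with the block. Leaving out 1 library gave 2 to 3 higher and 2 to 6 lower heme genes. ALAS1, the rate-limiting enzyme of heme synthesis, rose by 0.90 on the log2 scale (adjusted p = 3.71e-06), and the constitutive heme oxygenase gene HMOX2 rose by 0.59 (adjusted p = 0.000636). Of the later enzymes UROS fell by 1.12 (adjusted p = 3.56e-07) and ALAD by 0.45 (adjusted p = 0.00340), while UROD (0.12, adjusted p = 0.358), CPOX (-0.20, 0.196), PPOX (-0.11, 0.732) and FECH (0.12, 0.483) did not pass the test. Both heme oxygenase genes were therefore higher in siCRP2 cells. Of 16 tested ferroptosis genes, in addition to SLC7A11, 1 was higher, 2 lower and 13 neither, with a median of -0.12, beside the same shares without the block. The higher one was VDAC3, a mitochondrial channel gene (log2 fold change 0.50, adjusted p = 0.000564), and the lower ones were TFRC and the phospholipid remodelling gene LPCAT3 (-0.68, adjusted p = 0.000218). With the block 5 of the 16 were higher and 6 lower, beside 19.5% and 17.8% of all genes tested with the block. Counted once, the 138 tested genes of the 8 lists had 21 higher, 40 lower and 77 neither and a median of -0.11. They stand beside 12.5% higher and 11.5% lower of all genes tested and 29.0% and 17.1% of the abundant ones.

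A short sequence, GCCTCAC, that was picked earlier on these same fold changes was looked up in the canonical transcripts, so its shares here are no independent evidence. It was present in 46.5% of the protein-coding genes that were lower and in 11.9% of those that were higher, against 23.9% of the 14858 tested. Among the 10 genes it occurred only in TXNRD1, and the shorter CCTCAC occurred in NFE2L2, HMOX1 and TXNRD1. NQO1, the member that fell without the block, contained neither, while TXNRD1 fell only with the block. Of the 13 lower genes among the other NRF2 targets 5 contained GCCTCAC, and of the 18 that were neither 4 did. In the heme list 4 of 5 lower and 0 of 3 higher genes contained it, and in the glutathione list 3 of 6 and 0 of 7. In the thioredoxin list 1 of 3 lower and 2 of 5 higher genes did, and in the iron list 2 of 9 and 0 of 2.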

How the data were processed

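Messenger RNA libraries of MDA-MB-231 cells numbered 6, 3 of siCRP2 and 3 of siCTR, which the study describes as biological replicates. The authors aligned the paired-end reads to GRCh38 with STAR and deposited its raw read counts for each gene. Not given in the sources used here are the STAR version, the annotation and the strand setting. Columns were assigned to a group by name. An unnamed text column with 4 gene names was not used, and no column of fold changes or p-values was present.

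The 10 members and the 8 lists were chosen with earlier results of these data known. The test covered the 23806 genes counted in 2 or more of the 3 libraries of either group. After TMM scaling, with factors of 0.989 to 1.03, they were tested with edgeR 4.0.16 (robust quasi-likelihood test, R 4.3.3), siCRP2 against siCTR, with Benjamini-Hochberg adjustment over all of them. The threshold for a call was an adjusted p of 0.05. Depths of 17336798 to 39115778 counts limit the precision of low genes, and intervals of 95% come from the edgeR fit. CPM used the TMM factors, and TPM used merged exon lengths of GENCODE release 44, which held 57754 of the genes.

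Genes named with values are CSRP2, the 10 members, up to 4 genes per list with the smallest p among those called with a mean of at least 1 CPM, a fixed set of regulators (CUL3, BACH1, MAFF, MAFG, MAFK) and iron genes (TFRC, SLC40A1, IREB2, ACO1, NCOA4), and those said to be chosen after their values were seen. Given outside this rule are the cell type markers, genes that overlap a member, such as HNRNPA3, and the heme genes UROD, CPOX, PPOX and FECH. SOD2 was matched to no row by its GENCODE identifier and was not analysed here, and 1 gene that the rule named is not reported here.

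Pairing of the libraries by their codes was checked from deviations from the group means over 9629 genes. Their correlation was 0.734, 0.479 and 0.76 for libraries of the same code and at most 0.119 for others, so the codes were taken to pair the libraries and a blocked fit was made as an alternative. The blocked edgeR fit set no limit to the prior degrees of freedom for 92.8% of genes, which makes its p-values very small, so limma 3.58.1 voom was added after seeing the data. Other alternatives were the edgeR exact test, DESeq2 1.42.0, other scalings and filters, protein-coding genes only, pseudogene counts added, fold limits and leaving out each library. Ratios were tested by exact permutation. Only the edgeR fit without the block was tested on simulated data, which were drawn with no effect of a shared code. Promoter sequences are from RefSeq (GRCh38.p14).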

Additional observations from a re-analysis of the deposited data

How the results depend on the processing

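NQO1 and SLC7A11 kept their direction and call under every other model, scaling, filter and left-out library, and NFE2L2, GCLC, GCLM, FTH1 and FTL passed the test under none. With the replicate block of codes TXNRD1 became lower, so that lower members numbered 2 in edgeR and 2 in limma voom, and the block changed no other member's call. Leaving out 1 library gave 1 to 3 higher and 1 lower members, since KEAP1 and HMOX1 each lost their call without the siCRP2 libraries of code 0611 or 1311 or the siCTR library of code 0611. A fold change of at least 1.5 left 1 higher member, SLC7A11, and one over 2 left 0 in either direction. Over all genes tested, 4644 were higher and 4229 lower with the block in edgeR, 4595 and 4402 in limma voom with the block, 1091 higher and 1856 lower at a fold change of at least 1.5, and 1933 to 3128 higher and 2048 to 2888 lower without 1 library, the fewest higher without the siCRP2 library of code 1311. Of the other NRF2 targets 2 were higher and 20 lower with the block in edgeR, 2 and 21 in limma voom with the block, 1 higher in limma voom without it and with library totals alone, and 5 to 17 lower without 1 library. Of the iron genes 5 were higher with the block in both tools and 4 with no filter, and 2 to 4 were higher and 5 to 8 lower without 1 library. For the other changes the cause was not tested. The median of all genes moved by less than 0.1 on the log2 scale under any scaling. Without the block the intervals of FTH1 and FTL span folds of 0.577 to 1.67 and 0.632 to 1.45, and the shared code held 98.3% and 97.7% of their variance.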
